A study of Mus musculus with 35 samples.

Results

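Monocytes and macrophages are the mononuclear phagocytes of the lung, and 36 genes that mark their kinds were followed here across 5 groups of mouse lungs. The genes were listed by name for what they are known to mark, with earlier results of these data already known. Of the 36, 34 were measured, among 19938 genes in all. They fall into 5 role groups: 11 measured genes of alveolar macrophages, 6 of macrophages broadly, 9 of tissue macrophages including complement C1q, 4 of classical monocytes and 4 of nonclassical monocytes. Ear2, a ribonuclease of mouse alveolar macrophages and eosinophils, was not measured here, because the gene table used names no probe set for it alone. Ly6c2, the surface antigen that defines classical monocytes in the mouse, was not measured because its 2 probe sets are shared with Ly6c1, a neighbour that endothelium expresses.

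Classical monocytes leave the bone marrow, are recruited to injured tissue and can mature there into macrophages, while nonclassical monocytes patrol the inside of blood vessels. Alveolar macrophages live in the airspaces and depend on GM-CSF and the factor PPARgamma, and interstitial or perivascular macrophages, which make complement C1q, live in the tissue. These lungs were lavaged before they were removed, a step that washes cells out of the airspaces, so the RNA is that of the lavaged lung and the cells left in it. Each array measured the RNA of a whole lung, and more cells of a type cannot be told apart from more RNA of a gene per cell.

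Each of 35 adult male C57BL/6J mice, an inbred strain, gave 1 Affymetrix array. High stretch ventilation lasted 3 h at a tidal volume of 35 to 40 mL/kg, at 30 to 35 breaths per minute on 75% oxygen, with inspiratory pressure peaking at 27 cmH2O and 0 cmH2O at the end of expiration, either with 12% CO2 (high stretch hypercapnia, 10 mice) or without CO2 (high stretch normocapnia, 10 mice). Low stretch ventilation lasted 3 h at 10 mL/kg and 135 breaths per minute on room air, with 2 cmH2O at the end of expiration, again with 12% CO2 (low stretch hypercapnia, 5 mice) or without (low stretch normocapnia, 5 mice). Non-ventilated mice (5) were not put on the ventilator. A comparison of high with low stretch therefore joins tidal volume, pressure, rate and oxygen, whose parts cannot be told apart. Values are log2 signals, and all changes below are differences of group means on that scale, ± the limma standard error (SE), called at a Benjamini-Hochberg adjusted p under 0.05 over the 19938 genes.

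The arrays had medians between 6.96 and 7.05, and no 2 arrays held identical values. Markers of alveolar type 2 cells had a mean signal between 12.06 and 12.54 on every array, and those of type 1 cells between 11.00 and 11.47, which are the cells of the labelled tissue. Among the non-ventilated mice, replicate 5 stood apart: its mean signal over 15 neutrophil markers was 8.81, against 7.12 to 7.68 in the other 4. The same array had the highest Msr1, F13a1, Plac8, Tgfbi and Fcgr4 of its group, so the ventilation results are also given without it.

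Promoters are shown for genes that carry the results: Fcgr4 and F13a1, both higher after ventilation, and C1qb and C1qc, adjacent genes that varied together between mice of high stretch hypercapnia and were not called in any comparison. Each sequence runs 5′ to 3′ along its gene's strand, from 250 bases before the start to 50 after it, in the RefSeq annotation of GRCm38.p6. Capitals mark the PU box, the letters GAGGAA on either strand (TTCCTC on the other), which PU.1 binds. PU.1, encoded by Spi1, is an ETS factor without which macrophages and monocytes do not form.
Fcgr4, chr1:171018676-171018975, plus strand: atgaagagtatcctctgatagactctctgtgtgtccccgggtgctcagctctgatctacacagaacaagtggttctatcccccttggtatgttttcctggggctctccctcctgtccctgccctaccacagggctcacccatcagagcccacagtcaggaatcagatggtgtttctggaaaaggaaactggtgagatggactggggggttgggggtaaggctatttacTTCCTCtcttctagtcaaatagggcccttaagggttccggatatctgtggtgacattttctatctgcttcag
F13a1, chr13:37050195-37050494, minus strand: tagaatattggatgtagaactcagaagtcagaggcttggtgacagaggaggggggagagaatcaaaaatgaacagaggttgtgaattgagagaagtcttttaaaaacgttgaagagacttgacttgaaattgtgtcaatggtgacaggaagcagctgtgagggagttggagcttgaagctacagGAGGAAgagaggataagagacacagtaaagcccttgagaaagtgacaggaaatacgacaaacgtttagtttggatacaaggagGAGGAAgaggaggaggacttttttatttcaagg
C1qb, chr4:136886151-136886450, minus strand: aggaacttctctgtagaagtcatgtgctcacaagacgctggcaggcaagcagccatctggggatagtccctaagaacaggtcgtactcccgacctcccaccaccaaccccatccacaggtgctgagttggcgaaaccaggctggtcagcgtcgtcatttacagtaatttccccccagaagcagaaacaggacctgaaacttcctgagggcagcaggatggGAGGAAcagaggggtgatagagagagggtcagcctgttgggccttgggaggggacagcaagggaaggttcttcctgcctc
C1qc, chr4:136892865-136893164, minus strand: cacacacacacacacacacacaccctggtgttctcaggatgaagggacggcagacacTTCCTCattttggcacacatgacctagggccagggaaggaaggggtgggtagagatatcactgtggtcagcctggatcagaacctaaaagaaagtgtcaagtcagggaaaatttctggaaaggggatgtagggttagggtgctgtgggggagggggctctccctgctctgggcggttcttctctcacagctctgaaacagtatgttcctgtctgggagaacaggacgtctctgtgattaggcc
The F13a1 window holds the box at 2 places and the other 3 windows at 1 place each. Of the 36 listed genes, 29 had such a window (the first listed per gene), and 18 of these held the box (62.1%), against 28.3% of 27025 genes with a window. Among the monocyte genes with a window, 6 of 9 held it, and the windows of Tgfbi, Cx3cr1 and Cd209a did not. A match is a stretch of letters, not a measured binding site.

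The first comparison set lungs after 3 h of low stretch ventilation against non-ventilated lungs. No time or other setting was given for the non-ventilated mice. Ventilation, the 3 h it took and the handling that went with it therefore cannot be told apart. Of the 4 measured classical monocyte genes 3 were higher in the ventilated lungs, as were the receptors Fcgr4, Msr1, Mertk and Lyve1, while no alveolar macrophage or complement C1q gene was called. Of the 34 genes, 7 were higher, none was lower and 27 were not called. Over all genes, 6.63% were called higher and 5.17% lower. The median change was 0.12 over the 34 genes and -0.01 over all genes tested.

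Fcgr4 encodes an activating Fc receptor of nonclassical monocytes that mouse neutrophils also carry (probe set 10351509). Its signal was 9.23, 9.13, 8.67, 9.20 and 9.10 in the low stretch normocapnia mice, against 7.52, 6.95, 7.54, 7.52 and 8.29 in the non-ventilated mice. The groups did not overlap, and the highest non-ventilated array was replicate 5. The change was 1.50 ± 0.21 (2.83-fold, adjusted p = 4.35e-06, limma). All 30 ventilated mice of the 4 ventilated groups lay above the highest non-ventilated mouse.

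F13a1 encodes the A subunit of coagulation factor XIII and is abundant in classical monocytes (probe set 10408693). It measured 10.92, 10.79, 9.44, 9.89 and 11.10 in low stretch normocapnia and 8.58, 8.44, 8.62, 8.46 and 9.80 in non-ventilated mice. The change was 1.65 ± 0.35 (3.14-fold, adjusted p = 0.00107, limma). The groups overlapped only through non-ventilated replicate 5, and without that array the change was 1.90 (adjusted p = 0.000223). Across the ventilated groups 26 of 30 mice exceeded the highest non-ventilated one.

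Tgfbi encodes a secreted matrix protein induced by TGF-beta that monocytes and macrophages make (probe set 10405587). It stood at 10.65, 10.49, 9.91, 10.14 and 10.70 in low stretch normocapnia, against 9.46, 9.13, 9.45, 9.10 and 9.86 in non-ventilated mice. These groups did not overlap, but their closest arrays, at 9.91 and 9.86, nearly met. The change was 0.98 ± 0.20 (1.98-fold, adjusted p = 0.000624, limma), and 29 of 30 ventilated mice exceeded every non-ventilated one.

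Plac8, a small cysteine-rich protein of classical monocytes that neutrophils also express (probe set 10531724), was called with the widest error of the classical monocyte genes. It measured 10.29, 9.98, 8.61, 8.68 and 9.47 in low stretch normocapnia and 8.65, 8.17, 7.86, 6.85 and 8.96 in non-ventilated mice. The ranges overlapped and the change was 1.31 ± 0.38 (2.47-fold, adjusted p = 0.0190, limma). It did not pass without non-ventilated replicate 4 (adjusted p = 0.0870), without low stretch normocapnia replicate 1 (0.0819) and without its replicate 2 (0.0613). Cd209a, a C-type lectin of monocyte-derived dendritic cells, did not follow the other classical monocyte genes, with a change of -0.38 ± 0.27 (adjusted p = 0.457).

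Msr1, the class A scavenger receptor that takes up modified lipoproteins and debris (probe set 10578264), had the largest change of all 34 genes. Its signal was 9.19, 8.58, 6.88, 7.24 and 8.94 in low stretch normocapnia, against 6.56, 6.09, 6.44, 5.61 and 7.15 in non-ventilated mice. Replicates 1, 2 and 5 of the ventilated group were high, and replicates 3 and 4 lay close to the highest non-ventilated array. The change was 1.79 ± 0.47 (3.47-fold, adjusted p = 0.00891, limma), and 27 of 30 ventilated mice exceeded every non-ventilated one. The 95% confidence interval of the change ran from 0.84 to 2.75.

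Fcgr1, the high-affinity Fc receptor for IgG, was split in the same way. It measured 9.25, 8.41, 7.10, 7.21 and 8.84 in low stretch normocapnia and 7.13, 6.69, 6.99, 6.59 and 7.54 in non-ventilated mice. Its change of 1.17 ± 0.43 was not called (adjusted p = 0.0745). It was called without low stretch normocapnia replicate 3 (adjusted p = 0.0285) or without replicate 4 (0.0389), the 2 arrays that were also low for Msr1. With only genes above the median level tested it was called too (limma adjusted p = 0.0459).

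Mertk, a receptor tyrosine kinase for the uptake of apoptotic cells, was called with a smaller change. Its signal was 10.35, 10.41, 10.73, 10.54 and 10.57 in low stretch normocapnia, against 9.92, 9.93, 10.16, 10.35 and 9.99 in non-ventilated mice. The groups met at 1 array of each, and the change was 0.45 ± 0.12 (1.37-fold, adjusted p = 0.00912, limma). The arrays lowest for Msr1, replicates 3 and 4, were not the lowest for Mertk; replicate 3 was its highest. Among the other broad genes, Adgre1, an adhesion receptor of mouse macrophages, changed by 0.31 ± 0.13 (adjusted p = 0.138), Cd68, a lysosomal glycoprotein, by 0.25 ± 0.19 (0.493) and Axl, a kinase related to Mertk, by -0.04 ± 0.06 (0.811), none of them called.

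**Figure D1:**
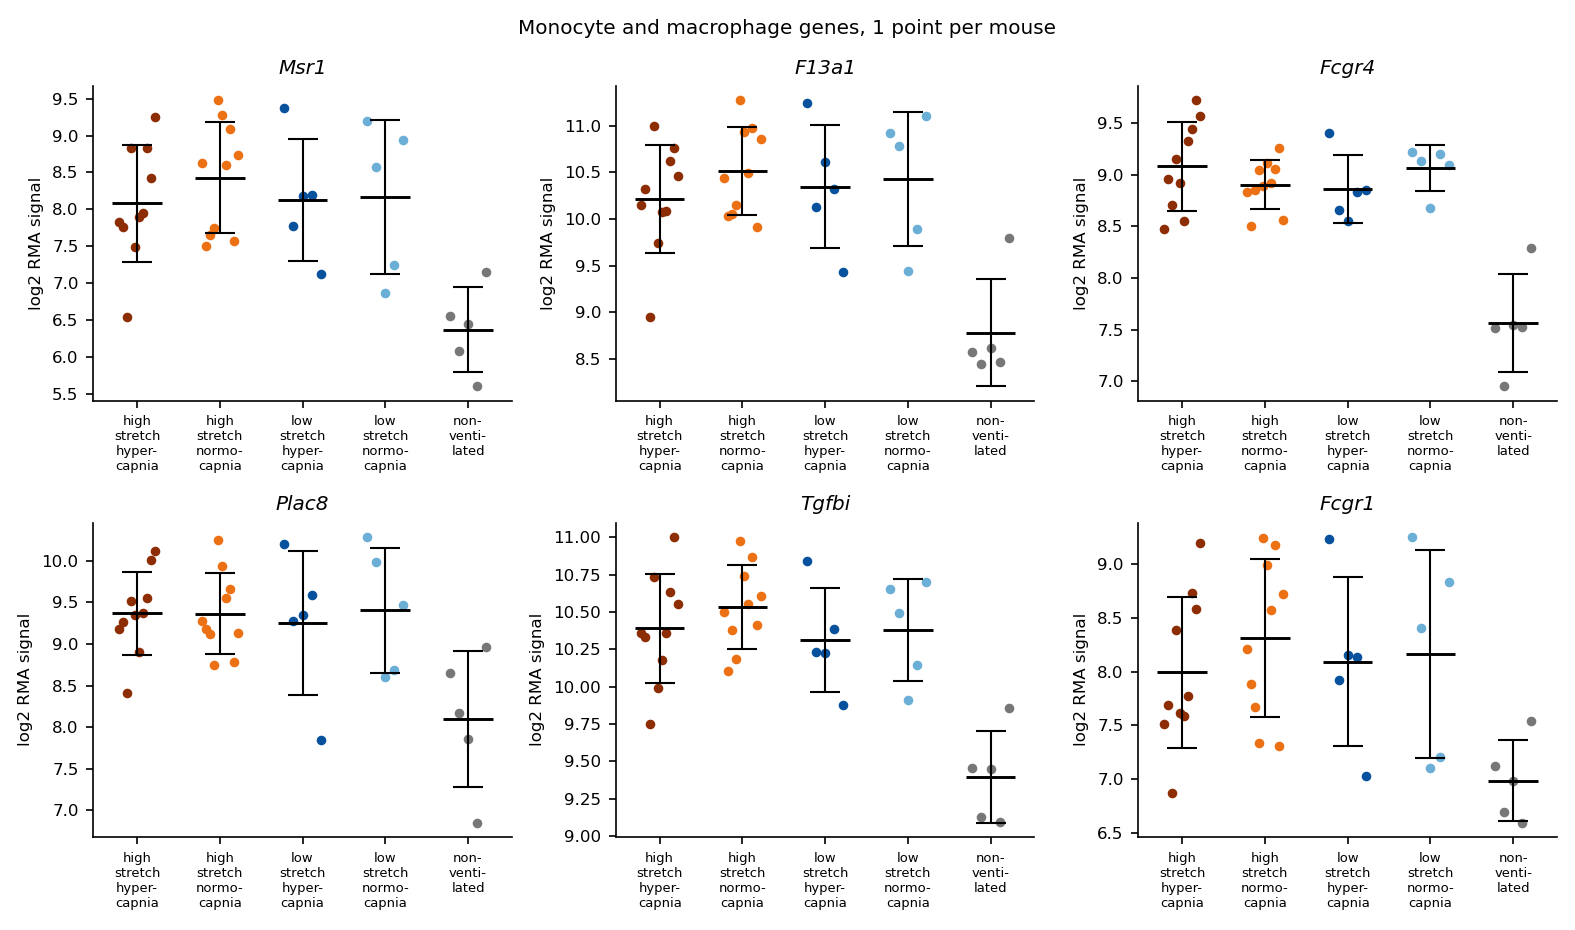
Each point is the log2 RMA signal of 1 mouse for Msr1, F13a1, Fcgr4, Plac8, Tgfbi and Fcgr1 in the 5 groups; the long line is the group mean and the bars are 1 SD. All 30 ventilated mice lie above the non-ventilated ones for Fcgr4, and 27 of 30 do for Msr1, whose ventilated mice spread from 6.54 to 9.48.

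The genes of resident macrophages were flatter. None of the 11 alveolar macrophage genes was called, and their changes ran from -0.14 to 0.34 with a median of 0.06. The highest was Chil3, the chitinase-like protein Ym1, at 0.34 ± 0.16 (adjusted p = 0.180), and the lowest was Pparg, the receptor on which these cells depend, at -0.14 ± 0.10 (0.477). Mrc1, the mannose receptor, had the smallest adjusted p of this group (0.0799, change 0.31 ± 0.12). It passed with array weights (limma adjusted p = 0.0158), with the replicate block (0.0342) and with only genes above the median level tested (0.0468). It also passed without non-ventilated replicate 3 (0.0348) or 4 (0.0409). Marco, a scavenger receptor of alveolar macrophages, changed by 0.21 ± 0.14 (0.382) and Itgax, the integrin CD11c, by -0.13 ± 0.11 (0.540).

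The changes of 6 further genes of this role group were small: Lpl (0.18), Atp6v0d2 (0.12), Ctsk (0.06), Fabp4 (-0.04), Cd36 (-0.05) and Plet1 (-0.11). Lpl, Cd36 and Fabp4 handle lipid and are also expressed by fat or endothelium, Atp6v0d2 is a proton pump subunit and Ctsk is the protease cathepsin K. The 95% intervals of Marco, Itgax and Pparg were -0.06 to 0.49, -0.35 to 0.09 and -0.35 to 0.07, so changes of the size of Msr1 or F13a1 lay outside them.

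C1qa, C1qb and C1qc encode the chains of the first complement component and follow each other on chromosome 4 with no gene between them in RefSeq. Their changes were -0.04 ± 0.14, 0.17 ± 0.13 and -0.07 ± 0.12, with adjusted p of 0.921, 0.474 and 0.819. C1qa measured 8.99, 8.73, 9.05, 8.67 and 8.89 in low stretch normocapnia and 8.90, 8.74, 9.21, 8.71 and 8.96 in non-ventilated mice. The ranges overlapped, with low stretch normocapnia replicate 4 the lowest of the 10 mice and non-ventilated replicate 3 the highest. The lowest change of the tissue macrophage group was that of Ms4a7, a tetraspan membrane protein, at -0.26 ± 0.13 (adjusted p = 0.234). Apoe, apolipoprotein E (-0.11), Folr2, a folate receptor (-0.03), Vsig4, a complement receptor (0.06), and Trem2, a lipid-sensing receptor (0.12), were not called. Signals of Vsig4 and Ms4a7 were low, with means of 5.09 and 5.63 over all 35 arrays, below the lowest array median of 6.96.

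Lyve1, a hyaluronan receptor of perivascular macrophages and of lymphatic endothelium, was the exception in that group. It measured 12.45, 12.66, 12.55, 12.49 and 12.30 in low stretch normocapnia, against 11.84, 11.81, 12.44, 12.33 and 12.39 in non-ventilated mice. The ranges overlapped, and the difference rested on non-ventilated replicates 1 and 2, which were the low ones. The change was 0.33 ± 0.11 (1.25-fold, adjusted p = 0.0359, limma). The adjusted p was 0.152 without non-ventilated replicate 1 and 0.168 without replicate 2, and the call was also lost without low stretch normocapnia replicate 1 (0.0563), 2 (0.107), 3 (0.0667) or 4 (0.0602). Of 4 lymphatic endothelial markers none was called, with changes of 0.30 for Mmrn1 (adjusted p = 0.108), 0.21 for Reln (0.0504), -0.07 for Prox1 (0.769) and -0.17 for Flt4 (0.166). Lyve1 had a mean of 12.50 over all arrays, while those of the other tissue macrophage genes ran from 5.09 (Vsig4) to 11.73 (Apoe). The 4 lymphatic markers together averaged 7.49 in non-ventilated and 7.56 in low stretch normocapnia mice, against 12.16 and 12.49 for Lyve1. Which cells gave the Lyve1 signal was not tested, nor was the part of lymphatic endothelium or of any other cell type in its change.

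The nonclassical monocyte genes did not move as a block. Beside Fcgr4, Treml4, a receptor of nonclassical monocytes and some dendritic cells, changed by 0.64 ± 0.22 (adjusted p = 0.0591). It was called without non-ventilated replicate 1 (0.0373) or low stretch normocapnia replicate 3 (0.0422). It was also called in a fit of only the compared groups (limma adjusted p = 0.0486), with genes above the median level (0.0358) and after a second quantile normalization (0.0464). Cx3cr1, the fractalkine receptor, changed by -0.44 ± 0.17 (0.0960), the lowest of all 34 genes. Cx3cr1 was called lower without non-ventilated replicate 3 (limma adjusted p = 0.0293), without low stretch normocapnia replicate 5 (0.0316) and with array weights (0.0321). Ace, the angiotensin-converting enzyme, which capillary endothelium expresses strongly, changed by 0.01 ± 0.07 (0.972).

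**Figure D2:**
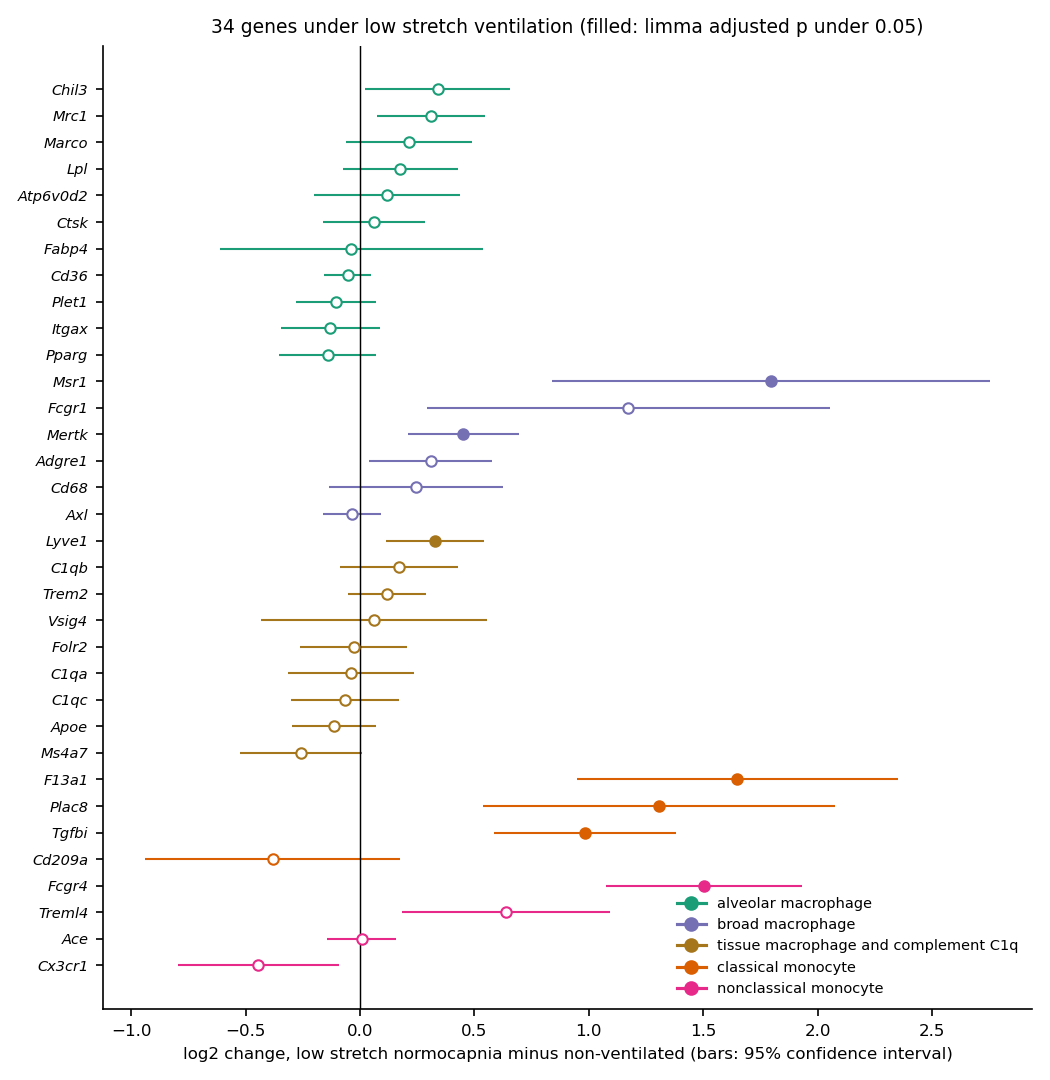
Points are the log2 changes of the 34 genes in low stretch normocapnia minus non-ventilated lungs, coloured by role group, with 95% confidence intervals; filled points had an adjusted p under 0.05. The filled points are Msr1, Mertk, Lyve1, F13a1, Plac8, Tgfbi and Fcgr4, and all 11 alveolar macrophage genes lie between -0.14 and 0.34.

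Related lists give the surroundings of these changes. Of 23 other monocyte genes, 8 were higher and 3 were lower. The largest were Ccr1, a chemokine receptor (2.42), Vcan, the proteoglycan versican (2.11), Itgam, the integrin CD11b (1.65), and Ms4a6c (1.47). The 3 lower ones, named after their values were seen, were the transcription factors Klf2 (-0.89), Klf4 (-0.55) and Irf8 (-0.44). Not called were 12 of the 23, among them Ccr2 (1.03, adjusted p = 0.101, limma). Of 15 myeloid lineage factors and receptors 6 were higher, among them Cd14 (0.90), Fcer1g (0.85), Tyrobp (0.82) and Spi1, the gene of PU.1 (0.77).

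Of 19 other alveolar macrophage genes, Il1rn (1.38), Csf2rb (1.04) and Csf2ra (0.35) were higher and Car4 was lower (-0.24). Of 16 other tissue macrophage genes, Cd163 (0.53) and Gpnmb (0.40) were higher and Tmem119 was lower (-0.69). Il1rn, the interleukin-1 receptor antagonist, and the GM-CSF receptor chains Csf2rb and Csf2ra are also made by neutrophils.

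Markers of other blood cells moved in the same comparison. Of 15 neutrophil markers, 13 were higher and none was lower, led by Mmp8 (4.21), Il1r2 (4.07), Retnlg (3.50) and S100a8 (3.42). Their mean signal was 9.40 to 10.14 in low stretch normocapnia and 7.12 to 8.81 in non-ventilated mice. Of the other lists, 5 of 5 B cell, 6 of 14 dendritic cell, 3 of 8 T and NK cell, 7 of 12 vascular endothelial, 1 of 4 eosinophil, 1 of 8 fibroblast, 2 of 7 alveolar type 2 and 2 of 6 alveolar type 1 markers were lower, and none of these lists had a gene that was higher. The part of these cells, neutrophils included, in the changes of the 34 genes and of the related lists was not tested. Over low stretch normocapnia replicates 1 to 5 the neutrophil mean was 10.14, 9.92, 9.40, 9.96 and 9.59, beside Msr1 at 9.19, 8.58, 6.88, 7.24 and 8.94 and Fcgr1 at 9.25, 8.41, 7.10, 7.21 and 8.84. Replicate 1 was the highest and replicate 3 the lowest of the 5 in all 3 measures, and replicates 4 and 5 stood in opposite order in the neutrophil mean and in both genes.

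Without non-ventilated replicate 5, 8 of the 34 genes were called higher: the 7 above and Chil3 (adjusted p = 0.0473). The change was then 1.99 for Msr1, 1.52 for Plac8, 1.10 for Tgfbi and 1.68 for Fcgr4.

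The effect of CO2 was asked at each stretch. At low stretch, none of the 34 genes was called between hypercapnia and normocapnia, and 1 had an unadjusted p under 0.05 in limma. Over all genes 0.0401% were called higher and 0.0752% lower. The gene with that p was Treml4, whose signal was 8.01, 7.86, 7.32, 7.44 and 7.43 in low stretch hypercapnia, against 8.75, 8.53, 8.00, 8.02 and 8.31 in low stretch normocapnia. The ranges met only at replicate 1 of the first group, and the change was -0.71 ± 0.22 (adjusted p = 0.219).

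Cx3cr1 measured 7.21, 7.47, 7.12, 7.26 and 7.37 in low stretch hypercapnia and 7.40, 7.45, 7.64, 7.44 and 8.11 in low stretch normocapnia, a change of -0.32 ± 0.17 (adjusted p = 0.589). The other nonclassical genes changed by -0.20 ± 0.21 for Fcgr4 and -0.01 ± 0.07 for Ace. In the other role groups the lowest and highest changes were those of Fabp4 (-0.20) and Plet1 (0.04), of Fcgr1 (-0.07) and Axl (0.09), of Vsig4 (-0.26) and Ms4a7 (0.08), and of Plac8 (-0.15) and Cd209a (0.13). The interval of Msr1 was wide, from -0.99 to 0.92.

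At high stretch, where each group had 10 mice, 1 gene of the 34 was called lower in hypercapnia and none higher. Over all genes 2.49% were called higher and 3.07% lower. Cx3cr1 ran from 6.88 to 7.78 with a median of 7.40 in high stretch hypercapnia, and from 7.36 to 8.39 with a median of 7.76 in high stretch normocapnia. The ranges overlapped, with the group means apart by -0.46 ± 0.12 (1.38-fold lower, adjusted p = 0.0189, limma). Leaving out any 1 of the 20 mice kept the call, with an adjusted p of at most 0.0455.

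Treml4 ran from 7.50 to 8.82 with a median of 8.03 in high stretch hypercapnia, against 8.02 to 9.28 with a median of 8.41 in high stretch normocapnia. Its change was also -0.46, with a wider error of 0.16 (adjusted p = 0.0879). Ace (-0.04) and Fcgr4 (0.18) were not called. Fcgr4, with the highest change of the nonclassical genes, spread from 8.47 to 9.72 in high stretch hypercapnia and from 8.50 to 9.26 in high stretch normocapnia.

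Of the other groups at high stretch none had a called gene. The alveolar macrophage genes lay between Lpl (-0.14) and Marco (0.09), the broad macrophage genes between Msr1 (-0.35 ± 0.33) and Axl (0.07 ± 0.04), and the classical monocyte genes between F13a1 (-0.30 ± 0.24) and Plac8 (0.00 ± 0.27). The tissue macrophage genes lay between Ms4a7 (-0.13) and Vsig4 (0.38 ± 0.17, adjusted p = 0.218). The Vsig4 difference included high stretch hypercapnia replicate 4, at 6.76, against 4.95 to 5.38 in the other 9 mice of that group. Lyve1 changed by 0.18 ± 0.07 (adjusted p = 0.163).

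The CO2 effects at the 2 stretch levels were set against each other as an interaction. None of the 34 genes and none of 19938 genes was called (0% higher and 0% lower), with an unadjusted p under 0.05 in limma for 1 of the 34 and 893 of all genes. The difference of CO2 effects was -0.14 ± 0.21 for Cx3cr1 and 0.25 ± 0.27 for Treml4. The single gene was Vsig4 (0.65 ± 0.30), whose mean over all 35 arrays, 5.09, lay below the lowest array median of 6.96. The lowest was Msr1 (-0.31 ± 0.58). By role group the other extremes were Lpl (-0.10) and Marco (0.24), Adgre1 (0.09), Ms4a7 (-0.21), F13a1 (-0.21) and Plac8 (0.15), and Fcgr4 (0.38).

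The mean of the 2 CO2 effects, a contrast added after the data had been seen, called 2 of the 34 genes lower and none higher. Over all genes it called 2.59% higher and 3.27% lower. Treml4 changed by -0.58 ± 0.14 (1.50-fold lower, adjusted p = 0.00675, limma) and Cx3cr1 by -0.39 ± 0.11 (1.31-fold lower, adjusted p = 0.0202). Without low stretch normocapnia replicate 5, the highest Cx3cr1 of its group, the Cx3cr1 call was lost (adjusted p = 0.0694), while Treml4 kept it without each array in turn. Fcgr4 (-0.01) and Ace (-0.03) were not called, so 2 of 4 nonclassical genes were lower. Of the 15 neutrophil markers none was called here. Of 8 T and NK cell markers Ncr1 (-0.71) and Klrb1c (-0.34), which natural killer cells express, were lower. In that list 5 changes were below 0 and 3 above. Of 14 dendritic cell markers Xcr1 (-0.21) was lower, with 5 changes below 0 and 9 above. Of 5 B cell markers Ms4a1 was lower (-0.35, adjusted p = 0.0227, limma), with all 5 B cell changes below 0. In the other lists 2 of 7 alveolar type 2, 1 of 6 alveolar type 1 and 1 of 8 fibroblast markers were lower. Higher were 1 of 12 vascular endothelial markers and 1 of 19 other alveolar macrophage genes (adjusted p = 0.00039, limma). At high stretch alone Ncr1 (-0.73), Xcr1 (-0.35), 1 of 8 fibroblast and 2 of 7 alveolar type 2 markers were lower. So was 1 of 15 myeloid lineage factors and receptors, and of 19 other alveolar macrophage genes 1 was higher and 1 lower. Of 14 dendritic cell changes at high stretch 6 were below 0 and 8 above, and of 8 T and NK cell changes 4 and 4. Cx3cr1 is also expressed by some natural killer cells and Treml4 by some dendritic cells; the part of those cells was not tested.

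**Figure D3:**
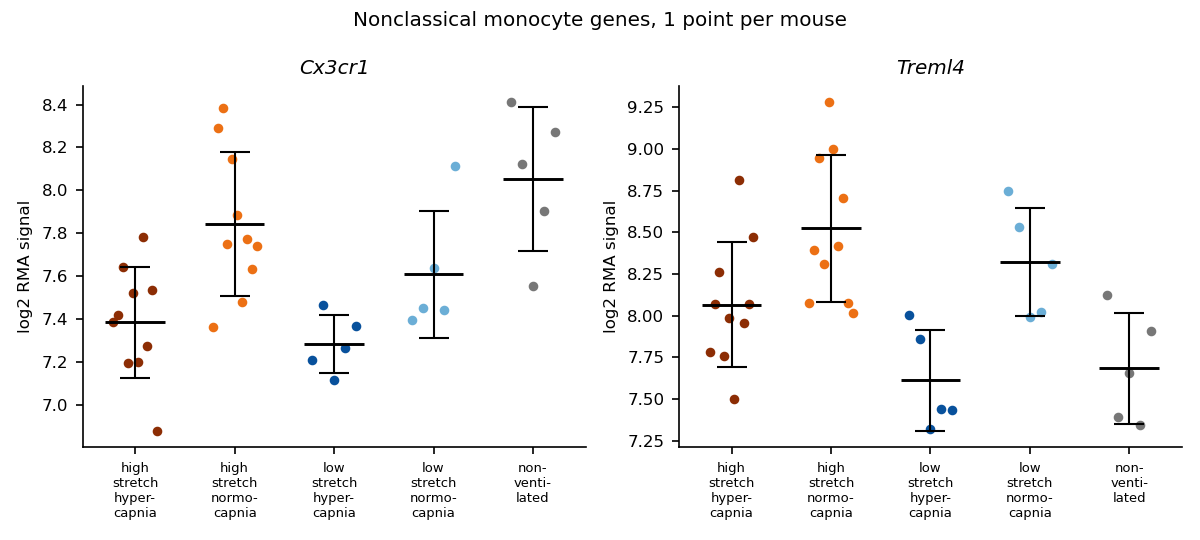
Each point is the log2 RMA signal of 1 mouse for Cx3cr1 and Treml4, with group means (long line) and 1 SD (bars). For both genes the hypercapnia mean is below the normocapnia mean at high and at low stretch: 7.38 against 7.84 and 7.28 against 7.61 for Cx3cr1, 8.07 against 8.52 and 7.61 against 8.32 for Treml4.

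Over the 5 groups Cx3cr1 averaged 7.38 ± 0.26 (SD, n = 10) in high stretch hypercapnia, 7.84 ± 0.34 (n = 10) in high stretch normocapnia, 7.28 ± 0.14 (n = 5) in low stretch hypercapnia, 7.61 ± 0.30 (n = 5) in low stretch normocapnia and 8.05 ± 0.34 (n = 5) in non-ventilated lungs. No ventilated mouse exceeded the highest non-ventilated one, and 18 of 30 lay below the lowest. Treml4 averaged 8.07 ± 0.38 in high stretch hypercapnia, 8.52 ± 0.44 in high stretch normocapnia, 7.61 ± 0.30 in low stretch hypercapnia, 8.32 ± 0.33 in low stretch normocapnia and 7.68 ± 0.33 in non-ventilated lungs. Its low stretch hypercapnia and non-ventilated means were the lowest and lay well within 1 SD of each other.

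High stretch was compared with low stretch under each gas, and none of the 7 genes called after low stretch ventilation was called in either comparison. In normocapnia, 1 of the 34 genes was higher and none was lower, against 8.72% of all genes higher and 9.56% lower. The low stretch normocapnia mice served in this comparison and in that with non-ventilated mice. The gene was Pparg, which ran from 8.35 to 8.77 with a median of 8.57 in high stretch normocapnia and measured 8.25, 8.04, 8.34, 8.28 and 8.61 in low stretch normocapnia. The ranges overlapped, and the change was 0.26 ± 0.09 (1.20-fold, adjusted p = 0.0425, limma). The call was lost in 10 of 15 fits without 1 array, namely without low stretch normocapnia replicates 1 to 4 or high stretch normocapnia replicates 3, 5, 7, 8, 9 or 10, with an adjusted p of up to 0.191. The non-ventilated mean of Pparg was 8.44 ± 0.09 (SD, n = 5), between those of high stretch normocapnia (8.56 ± 0.13, n = 10) and low stretch normocapnia (8.30 ± 0.20, n = 5).

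Mertk, at -0.28 ± 0.10, was the lowest of the broad macrophage genes (adjusted p = 0.0534), and Msr1 the highest (0.26 ± 0.41). Mertk ran from 10.10 to 10.54 in high stretch normocapnia, against 10.35 to 10.73 in low stretch normocapnia, and was called lower in 6 of the alternative fits. Of the alveolar macrophage genes Itgax (0.23 ± 0.09, adjusted p = 0.0875), Mrc1 (0.22 ± 0.10, 0.132) and Plet1 (0.18 ± 0.07, 0.0959) followed Pparg without passing, and Lpl was lowest (-0.08). With array weights Itgax (limma adjusted p = 0.0257), Mrc1 (0.0209) and Plet1 (0.0313) were called higher, and with arrays centred Itgax (0.0406) and Plet1 (0.0414). Some fits without 1 array also called each of them. The median over the 11 genes was 0.14, against 0.08 over the 34 and -0.02 over all genes.

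The classical monocyte genes lay between Plac8 (-0.04 ± 0.33) and Cd209a (0.23 ± 0.24). The nonclassical ones lay between Fcgr4 (-0.16 ± 0.18) and Cx3cr1 (0.24 ± 0.15), with Ace at -0.15 ± 0.06 (adjusted p = 0.0956). Ace was called lower in a fit of only the compared groups (limma adjusted p = 0.0413), with array weights (0.0116) and after a second quantile normalization (0.0320). The tissue macrophage genes lay between Vsig4 (-0.14) and C1qb (0.11). These intervals are wide for the genes that spread most: that of Msr1 ran from -0.57 to 1.09 and that of F13a1 from -0.53 to 0.69.

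In hypercapnia, none of the 34 genes was called between high and low stretch, and 7 had an unadjusted p under 0.05 in limma. Over all genes 5.43% were called higher and 4.69% lower. Marco ran from 7.70 to 8.31 in high stretch hypercapnia and measured 7.69, 7.70, 7.22, 7.68 and 7.55 in low stretch hypercapnia. Those groups did not overlap, although their closest arrays were both at 7.70 after rounding, and the change was 0.31 ± 0.12 (adjusted p = 0.0851). Ace was lowest of the nonclassical genes, from 10.98 to 11.54 in high stretch hypercapnia against 11.42 to 11.62 in low stretch hypercapnia, a change of -0.18 ± 0.06 (adjusted p = 0.0705), and was called lower in 6 of the alternative fits here.

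Treml4 was the highest nonclassical gene (0.46 ± 0.19, adjusted p = 0.139). Vsig4 was the highest tissue macrophage gene (0.51 ± 0.21, 0.121) and Ms4a7 the lowest (-0.11). Mertk (-0.26 ± 0.10, 0.112) and Cd68 (0.25 ± 0.16, 0.375) bounded the broad macrophage genes, Lpl (-0.18) the alveolar ones from below, and F13a1 (-0.13 ± 0.30) and Plac8 (0.11 ± 0.33) the classical monocyte genes. Pparg changed by 0.21 ± 0.09 (0.142).

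Related genes did pass in the stretch comparisons. In normocapnia Nr4a1, an orphan nuclear receptor that nonclassical monocytes need and that many cells induce early, was higher by 1.68 and Klf4 by 0.26, of 23 other monocyte genes. Of 16 other tissue macrophage genes 3 were higher, Ccl12, a monocyte chemokine (1.12), Dab2 (0.48) and Timd4 (0.39), and 4 were lower, led by Hpgd (-0.35). Of 19 other alveolar macrophage genes Lgals3, galectin-3, was higher (0.74) and Slc7a2 lower (-0.26). In hypercapnia Nr4a1 (1.50), Klf4 (0.26), Ccl12 (0.80), Tmem119 (0.47) and Lgals3 (0.38) were higher and Hpgd (-0.32) was lower. Of 15 myeloid lineage factors and receptors 1 was higher and none lower in normocapnia, and 1 was lower and none higher in hypercapnia. None of 15 neutrophil markers was called in either stretch comparison, and their mean ran from 9.16 to 10.49 in high stretch hypercapnia, 9.30 to 10.32 in high stretch normocapnia, 9.14 to 10.58 in low stretch hypercapnia and 9.40 to 10.14 in low stretch normocapnia. Other lists did move with stretch. Of 5 B cell markers 4 were higher in normocapnia (median change 0.43) and 3 in hypercapnia (0.45), and of 8 T and NK cell markers Cd2 was higher in both (0.38 and 0.36). Of 12 vascular endothelial markers 3 were lower in normocapnia, and in hypercapnia 2 were lower and 1 was higher. Of 7 alveolar type 2 markers 1 was lower in normocapnia and 2 in hypercapnia, and of 6 alveolar type 1 markers 1 was lower in each. The part of these cells in the values of the 34 genes was not tested.

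**Figure D4:**
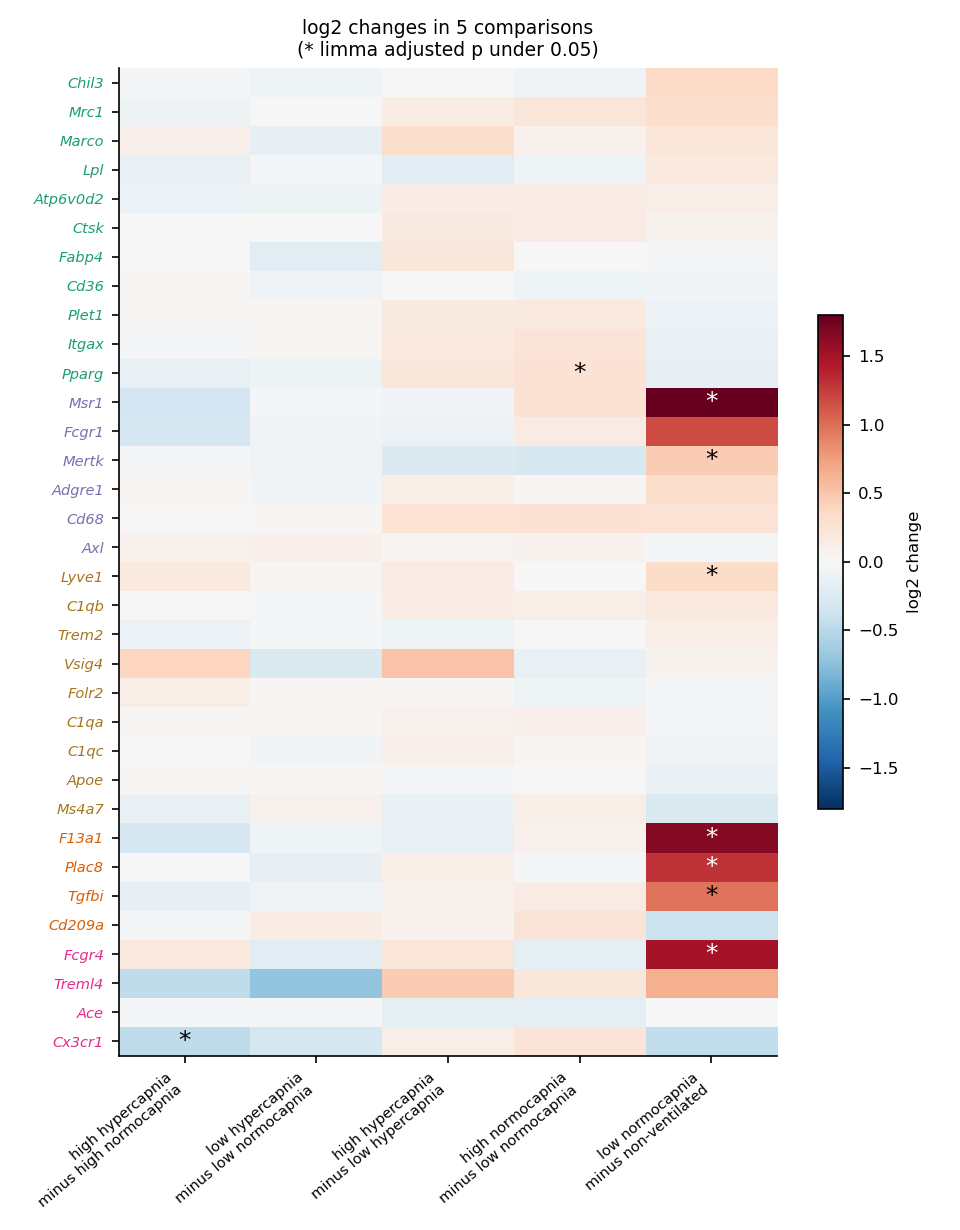
Colours give the log2 change of each of the 34 genes (rows, labels coloured by role group as in the plot of ventilation changes) in 5 comparisons (columns, with "high" and "low" for the stretch); asterisks mark an adjusted p under 0.05. The strong colours of Msr1, Fcgr1, F13a1, Plac8, Tgfbi and Fcgr4 stand in the ventilation column, where the change of Msr1 is 1.79.

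The genes differed in their spread between mice of a group, the called genes included. Msr1 had an SD of 0.79, 0.75, 0.82 and 1.04 in high stretch hypercapnia, high stretch normocapnia, low stretch hypercapnia and low stretch normocapnia, and 0.57 in non-ventilated mice. Over the 5 groups the SD was 0.38 to 0.97 for Fcgr1, which was not called, 0.48 to 0.87 for Plac8, 0.22 to 0.48 for Fcgr4, 0.28 to 0.36 for Tgfbi, 0.18 to 0.23 for C1qb and 0.13 to 0.27 for Mrc1. Low stretch hypercapnia replicate 1 had the highest Msr1 (9.38), Fcgr1 (9.23), F13a1 (11.24), Plac8 (10.20) and Tgfbi (10.84) of its group, and replicate 5 the lowest of all 5 (7.12, 7.03, 9.43, 7.84 and 9.88). In high stretch hypercapnia replicate 3 had the lowest mean over the classical monocyte genes (8.72) and replicate 10 the highest (10.14). The neutrophil mean of that replicate 10 (10.49) was also the highest of its group, and that of low stretch hypercapnia replicate 1 (10.58) likewise. In high stretch normocapnia, by contrast, replicate 4 had the highest neutrophil mean (10.32) and the lowest classical monocyte mean (9.20). The lowest neutrophil mean was that of replicate 6 in high stretch hypercapnia (9.16) and of replicate 3 in low stretch hypercapnia (9.14). Neither mouse had the lowest classical monocyte mean of its group. In low stretch normocapnia replicate 1 was highest and replicate 3 lowest in both means. Among non-ventilated mice replicate 5 was highest in both, while replicate 3 had the lowest neutrophil mean and replicate 4 the lowest classical monocyte mean.

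Correlations between the genes were taken over the 10 mice of each high stretch group, for all 561 pairs and 1122 relations in all, with p from 100000 permutations adjusted over the 1122. The choice to compute them, and which pairs to name, came after the values were known. An adjusted p under 0.05 for Pearson's r was found for 14 pairs in high stretch hypercapnia and 15 in high stretch normocapnia, and 6 pairs had it in both: Msr1 with Fcgr1 and F13a1, Fcgr1 with Plac8, and Tgfbi with F13a1, Cd68 and Adgre1. All 6 were positive. Of the 15 pairs in high stretch normocapnia 1 was negative, Cd36, a fatty acid transporter, with Fcgr1. It had r = -0.62 (permutation p = 0.0594, adjusted 0.335) and rho = -0.56 (0.0974) in high stretch hypercapnia, where all 14 pairs under 0.05 were positive, and r = -0.88 (permutation p = 0.00077, adjusted 0.0359) and rho = -0.84 (0.00369, adjusted 0.0846) in high stretch normocapnia. Without the 2 mice farthest from the median of Cd36 r was -0.69 in high stretch hypercapnia and -0.82 in high stretch normocapnia. Of the 6 shared pairs Fcgr1 with Plac8 and F13a1 with Tgfbi also had an adjusted p under 0.05 for Spearman's rho in both. The counts moved with the random draw of the permutations: over 10 draws, chosen after the values were seen, they were 14 to 15 in high stretch hypercapnia, 14 to 17 in high stretch normocapnia and 6 to 7 in both, and the 6 named pairs had it in every draw.

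Msr1 and F13a1 had r = 0.89 (permutation p = 0.00107, adjusted 0.0429) and rho = 0.81 (0.00701, adjusted 0.125) in high stretch hypercapnia. In high stretch normocapnia they had r = 0.97 (permutation p = 3e-05, adjusted 0.0150) and rho = 0.96 (6e-05, adjusted 0.0150). Without the 2 mice farthest from the median of Msr1, r was 0.91 in high stretch hypercapnia and 0.96 in high stretch normocapnia. The normocapnia mice had a gap in Msr1, with 4 at 7.50 to 7.75 and 6 at 8.60 to 9.48. Over those 6 alone r was 0.91 (exact permutation p = 0.0111) and rho 0.89 (exact permutation p = 0.0333), neither p adjusted. The cut was made on Msr1 itself after the values were seen, and the 4 lower mice were not tested.

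Fcgr1 and Plac8 had r = 0.92 (permutation p = 0.0001, adjusted 0.0157) and rho = 0.96 (4e-05, adjusted 0.0150) in high stretch hypercapnia, and r = 0.89 (0.00057, adjusted 0.0320) and rho = 0.90 (0.00087, adjusted 0.0454) in high stretch normocapnia. Without the 2 mice farthest from the median of Fcgr1, r was 0.93 in high stretch hypercapnia and 0.80 in high stretch normocapnia. Msr1, Fcgr1, F13a1, Plac8 and Tgfbi were put together as a set after the values were seen, so high r among them is no separate result. Cd209a, the other measured classical monocyte gene, was not in it. Among the 10 pairs of the set, r ran from 0.78 to 0.95 in high stretch hypercapnia and from 0.82 to 0.97 in high stretch normocapnia. An adjusted permutation p under 0.05 was found for 4 of these pairs in high stretch hypercapnia and for 8 in high stretch normocapnia. The permutations ran over mice of 1 group and 1 condition at a time, so the groups' means did not enter.

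The C1q genes made a second set. In high stretch hypercapnia the 3 pairs of C1qa, C1qb and C1qc had r of 0.90 to 0.98, with an adjusted permutation p of at most 0.0312 for r and 0.0200 for rho. In high stretch normocapnia their r ran from 0.75 to 0.80 and none had an adjusted p under 0.05 (C1qa with C1qb: r = 0.80, permutation p = 0.00763, adjusted 0.107; rho = 0.85, 0.00276, adjusted 0.0756). Without the 2 mice farthest from the median of C1qa, this pair had r = 0.90 in high stretch hypercapnia and 0.74 in high stretch normocapnia. Msr1 and C1qa had r = -0.10 (permutation p = 0.791, adjusted 0.934) and rho = -0.03 (0.946) in high stretch hypercapnia, and r = 0.29 (0.408, adjusted 0.726) and rho = 0.22 (0.538) in high stretch normocapnia. Over the 15 pairs between both sets r ran from -0.16 to 0.25 in high stretch hypercapnia and from 0.21 to 0.67 in high stretch normocapnia, with no pair under 0.05 after adjustment.

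Alveolar macrophage genes varied together less evenly. Of their 55 pairs none had an adjusted p under 0.05 in high stretch hypercapnia (median r = 0.09) and 3 had it in high stretch normocapnia (median r = 0.20). Mrc1 and Atp6v0d2 were 1 of these 3, with r = 0.93 (permutation p = 0.00029, adjusted 0.0217) and rho = 0.93 (0.00037, adjusted 0.0319), and r = 0.76 without the 2 mice farthest from the median of Mrc1. In high stretch hypercapnia that pair had r = 0.68 (permutation p = 0.0302, adjusted 0.223) and rho = 0.68 (0.0346). Msr1 and Mertk, both called higher after ventilation, had r = -0.61 (permutation p = 0.0676, adjusted 0.350) and rho = -0.47 (0.179) in high stretch hypercapnia, and r = -0.48 (0.160, adjusted 0.482) and rho = -0.43 (0.220) in high stretch normocapnia.

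**Figure D5:**
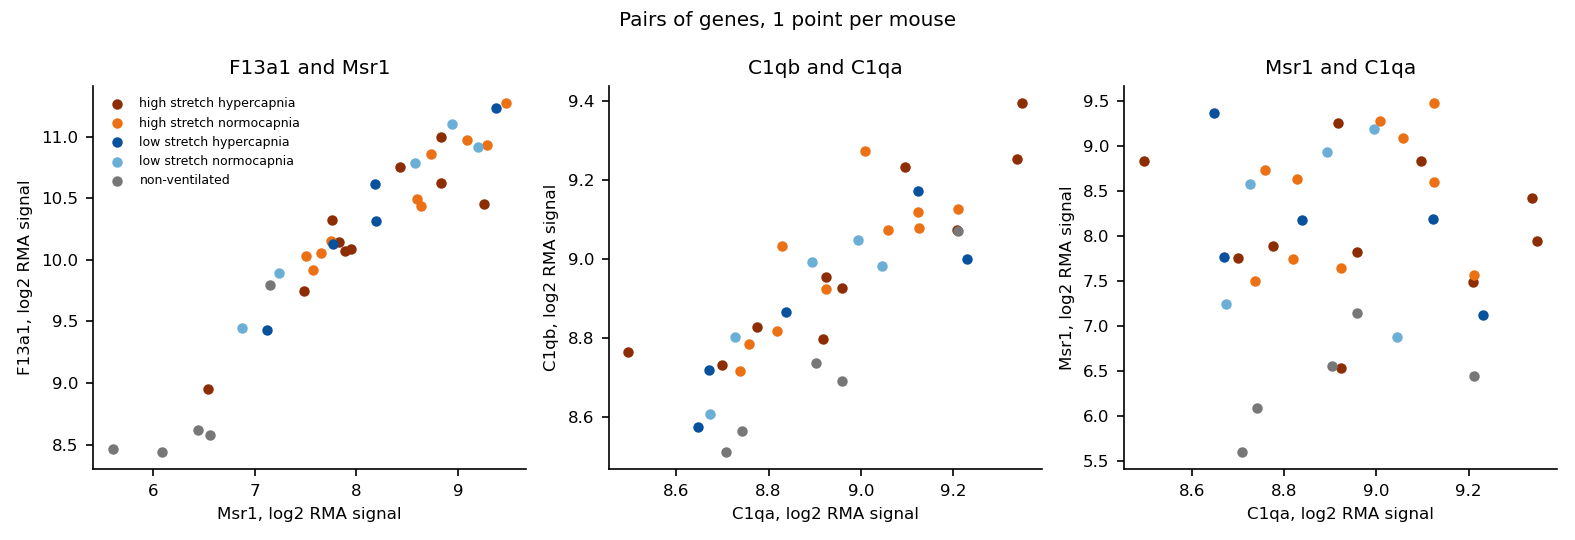
Each point is 1 mouse, coloured by group, and the axes are log2 RMA signals: F13a1 against Msr1, C1qb against C1qa, and Msr1 against C1qa. Points follow a line for F13a1 and Msr1 (r = 0.89 in high stretch hypercapnia and 0.97 in high stretch normocapnia) and for C1qb and C1qa, and scatter for Msr1 and C1qa.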

How the data were processed

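RNA of 35 lungs was measured on Affymetrix whole-transcript arrays, 1 per mouse. The deposited values are log2 signals on the scale RMA gives; RMA, Partek and Affymetrix Expression Console are named, without versions, per the submitters' processing notes. RMA shares 1 distribution of signals among arrays, so changes are relative to the other genes, and the number of arrays limits the precision. Of 35557 probe sets, 21789 carried 1 gene symbol in the platform annotation used. Each gene is represented by its probe set of highest mean signal (19938 genes, no filter on level).

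All 35 arrays entered 1 model of group means in limma 3.58.1 (lmFit, eBayes; R 4.3.3), two-sided, with 7 contrasts, each adjusted over all genes. The procedure was tested on simulated data. The listed genes and the related lists were chosen with earlier results of these data known. The rule for named genes covers all 36: called genes, the extremes of each role group, and array values for called genes with a change of at least 1 or the smallest p of their group. Alternatives were other fits, filters, probe set choices and scalings, the replicate block, and fits without 1 array.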

Additional observations from a re-analysis of the deposited data

Results flagged for a closer look

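In 11 of 170 sets of values (34 genes in 5 groups), 1 mouse lay far from the rest of its group by Dixon's test, 6.47% of the sets, where chance alone flags about 1 in 20. Vsig4 measured 6.76 in high stretch hypercapnia replicate 4, against 4.95 to 5.38 in the other mice, and Fabp4 measured 10.69 in the same mouse, against 8.45 to 9.56. Vsig4 also measured 6.21 in non-ventilated replicate 3, against 4.58 to 5.01, a mouse whose Fabp4, at 10.05, was the highest of its group too. F13a1 measured 9.80 in non-ventilated replicate 5, against 8.44 to 8.62 in the others, and Fcgr4 measured 8.67 in low stretch normocapnia replicate 3, against 9.10 to 9.23.

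Lyve1 was low in low stretch hypercapnia replicate 2 (12.24, others 12.55 to 12.64) and high in high stretch hypercapnia replicate 8 (12.98, others 12.52 to 12.77). Adgre1 measured 8.97 in high stretch hypercapnia replicate 9 (others 8.21 to 8.61). In high stretch normocapnia, Mertk measured 10.54 in replicate 9 (others 10.10 to 10.31), Ms4a7 5.98 in replicate 8 (others 5.51 to 5.73) and Trem2 6.69 in replicate 4 (others 6.96 to 7.25).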

How the results depend on the processing

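No call changed direction. After low stretch ventilation the count of called genes was 6 to 10 in 9 other fits (8 with the replicate block) and 5 to 9 without 1 array, against 7. At high stretch the CO2 count, 1, was 2 with array weights (Cx3cr1 and Treml4) and 1 to 2 without 1 array. For high against low stretch in normocapnia the count, 1, was 3 in a fit of only the compared groups, 6 with array weights, 2 with genes above the median level, 3 with arrays centred, 3 after a second quantile normalization, and 0 to 3 without 1 array. In hypercapnia the count, 0, was 1 with eBayes trend and robust options, 1 with genes above the median level and 1 after a second quantile normalization (Ace each time), and 0 to 2 without 1 array. The averaged CO2 effect called 2 genes in all 9 other fits and 1 to 2 without 1 array. Fcgr4, Tgfbi, F13a1, Msr1 and Mertk kept their ventilation calls in every fit, and Cx3cr1 its call at high stretch. Lyve1 was not called in a fit of only the compared groups, nor was Plac8 in that fit and with array weights. The replicate block changed no other count. Same-numbered mice of different groups correlated above 0.1 in 14 of 30 pairs (-0.31 to 0.38). With no such values for differently numbered mice, this cannot decide whether the numbers pair them. The cause of the differences between fits was not tested. Wide spread between mice limits what can be seen for Msr1, Fcgr1, F13a1 and Plac8.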
